A study of Mus musculus with 24 samples.

Results

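The chaperone module holds 42 genes that help proteins fold, chosen as a list of gene symbols from a table of 47643 symbols. By the place where their proteins mainly work, 27 were assigned to the cytosol and nucleus, 4 to mitochondria and 11 to the endoplasmic reticulum (ER). All 42 reached 1 TPM in every library, so none was lost to a filter on low values. TPM is transcript abundance divided by transcript length and scaled to a total of 1000000 in each library, so levels of different genes can be set side by side.

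Bulk RNA was sequenced from the brains of male C57BL/6J mice, 4 months old, in a study of wasting caused by tumours. The LLC groups had received LLC cells, which grew for up to about 3 weeks, and the control groups a mock injection; the labels name no engineered allele and no other agent in either. The labels do not spell out LLC, which is usually short for Lewis lung carcinoma, and the title of the series speaks of melanoma. Neocortex, cerebellum and hippocampus each gave 4 LLC libraries (replicates 1 to 4) and 4 control libraries (replicates 14 to 17), 24 in all. The labels call these biological replicates without saying which libraries share an animal, so p-values measure the spread between these libraries.

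Chaperones bind unfolded stretches of other proteins and release them to fold. In the cytosol, HSP70 proteins are loaded with clients by J proteins, emptied by the HSP110 family, which exchanges their nucleotide, and linked to HSP90 by co-chaperones such as Stip1. Heat shock factor drives many of these genes when unfolded protein builds up in the cytosol, whereas the unfolded protein response drives the ER set. Neurons keep high levels of the constitutive forms and are known for a weak induction of the heat-inducible HSP70 genes.

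The main cytosolic HSP70 and HSP90 genes were the most abundant members in control brain. Hspa8, the constitutive HSP70, and Hsp90ab1 and Hsp90aa1, the main cytosolic HSP90 genes, were the 3 most abundant members in each control region. Over the 4 control neocortex libraries Hspa8 averaged 1389.6 ± 54.7 TPM, Hsp90ab1 1506 ± 45.1 TPM and Hsp90aa1 965 ± 44.7 TPM (mean ± SD). The inducible HSP70 genes Hspa1a and Hspa1b averaged 13.3 ± 0.33 and 13.0 ± 1.10 TPM there. Mitochondrial members lay between 67.6 and 246 TPM and ER members between 17.4 and 313 TPM as means of control regions.

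Sums of region markers were highest in the labelled regions, and several libraries differed in make-up. Gabra6, a cerebellar granule cell marker, lay between 455 and 986 TPM in cerebellar libraries, at most at 0.311 TPM in neocortex and at most at 0.403 TPM in hippocampus. LLC libraries carried more red cell transcripts: the 5 erythrocyte markers, none of them at 0, summed to 3564 to 15176 TPM in LLC neocortex against 1124 to 1506 TPM in control neocortex. LLC replicate 4 had the lowest such sum of the LLC libraries in each region. Cerebellar LLC replicate 1 summed to 1785 TPM over the 4 cerebellar markers. The other LLC libraries of that region lay at 3012 to 3215 TPM and its controls at 2867 to 3214 TPM. Over the 4 neocortical markers cerebellar LLC replicate 1 summed to 99.2 TPM, against 25.1 to 27.8 TPM in the other cerebellar LLC libraries. Control cerebellum replicate 14 summed to 50.6 TPM over these, against 20.9 to 28.9 TPM in the other cerebellar controls. In neocortex 3 of 6 neuron markers fell (Tubb3, Nefl and Stmn2), with sums of 2741 to 3150 TPM in LLC and 3142 to 3320 TPM in control libraries, which just overlap. In hippocampus Tubb3 and Stmn2 fell and Rbfox3 rose, with sums of 2437 to 2576 TPM in LLC and 2636 to 2814 TPM in control libraries, which do not overlap. In cerebellum 0 neuron markers were called, with sums of 2525 to 2928 TPM in LLC and 2755 to 2814 TPM in control libraries. Neutrophil markers S100a8, S100a9 and Retnlg, 3 of 6 listed, rose in each region, and the sum of the list was highest in LLC replicate 4 each time. That sum was 38.9 to 197 TPM in LLC and 4.85 to 9.41 TPM in control neocortex, 37.4 to 146 TPM in LLC and 3.11 to 15.4 TPM in control cerebellum, and 23.7 to 113 TPM in LLC and 1.12 to 10.48 TPM in control hippocampus. Retnlg, Ngp and Camp were at 0 in 1 hippocampal library each and Ltf in 2. The part of these differences in the results that follow was not tested. Of the 276 library pairs 0 were identical, between 14368 and 14847 genes reached 1 TPM per library, and the number of reads is not known from TPM.

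Promoters were searched for 2 stress elements, and 35 of the 42 members have an entry in RefSeq's promoter table (build GRCm38.p6, 250 bases before to 50 after the start site). A heat shock element was searched on both strands as GAA, TTC and GAA with any 2 bases between neighbours, and an ER stress element as CCAAT and CCACG with any 9 bases between. The heat shock element stood in 4 of the 35 members (11.4%), Hspd1, Hspe1, Hsph1 and Chordc1, and in 179 of all 27025 genes (0.662%). By compartment these are 2 of 22 cytosolic (9.09%), 2 of 3 mitochondrial (66.7%) and 0 of 10 ER members. The mitochondrial matches are the same stretch, shared by Hspd1 and Hspe1. Hspa8, Hsp90aa1, Hsp90ab1, Hsf1, Cryab, Hspa9 and Hyou1 have no entry and were not searched. The inducible Hspa1a and Hspa1b, and Hspb1 and Dnajb1, had no exact match. The ER stress element stood in 6 members (17.1%), Hspa5, Hsp90b1, Calr, Canx, Pdia6 and Dnajc3, and in 37 of all genes (0.137%). These 6 are ER members, 60.0% of the 10 with an entry, and no cytosolic or mitochondrial member held it, nor did any member hold both elements. A match is a description of these letters and not evidence of binding; no mismatch was allowed. The sequences below are the shared start region of the mitochondrial pair, 2 cytosolic members with the heat shock element, and Hspa5 for contrast, with the matched span in capitals and overlapping matches joined.
Hspe1, chr1:55087898-55088197, plus strand: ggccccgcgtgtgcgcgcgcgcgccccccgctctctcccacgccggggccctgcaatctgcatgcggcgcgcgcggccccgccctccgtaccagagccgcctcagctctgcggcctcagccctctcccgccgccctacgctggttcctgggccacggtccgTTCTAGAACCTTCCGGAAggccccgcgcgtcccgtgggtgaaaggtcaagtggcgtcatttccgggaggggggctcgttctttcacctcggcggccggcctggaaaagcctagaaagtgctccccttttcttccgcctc
Chordc1, chr9:18292017-18292316, plus strand: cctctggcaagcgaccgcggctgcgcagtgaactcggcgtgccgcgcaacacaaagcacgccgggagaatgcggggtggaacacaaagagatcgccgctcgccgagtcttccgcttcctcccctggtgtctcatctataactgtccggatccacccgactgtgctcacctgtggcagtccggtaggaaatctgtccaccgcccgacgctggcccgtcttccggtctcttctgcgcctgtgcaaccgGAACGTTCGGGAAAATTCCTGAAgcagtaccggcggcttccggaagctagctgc
Hsph1, chr5:149636287-149636586, minus strand: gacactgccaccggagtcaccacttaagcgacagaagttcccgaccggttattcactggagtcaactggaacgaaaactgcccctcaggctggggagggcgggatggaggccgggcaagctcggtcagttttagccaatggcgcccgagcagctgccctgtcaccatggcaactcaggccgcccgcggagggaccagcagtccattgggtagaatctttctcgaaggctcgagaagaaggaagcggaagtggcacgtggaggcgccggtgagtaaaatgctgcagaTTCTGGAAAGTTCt
Hspa5, chr2:34771840-34772139, plus strand: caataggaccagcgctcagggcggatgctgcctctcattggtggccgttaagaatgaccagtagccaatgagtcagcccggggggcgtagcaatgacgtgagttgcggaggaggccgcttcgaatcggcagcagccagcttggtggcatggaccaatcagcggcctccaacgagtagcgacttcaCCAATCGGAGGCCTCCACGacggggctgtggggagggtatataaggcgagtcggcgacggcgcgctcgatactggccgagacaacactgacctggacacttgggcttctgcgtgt
Hspd1 and Hspe1 lie head to head on chromosome 1, and a promoter window of Hspd1 shares 285 bases with that of Hspe1. The match printed for Hspe1, 89 bases before its start site, is therefore also that of Hspd1, 144 bases before the start site of that window. Another window of Hspd1, with a different start site, held no match. In Chordc1 the match begins 4 bases before the start site. In the Hsph1 window printed it lies 36 bases after the start site, and in another Hsph1 window 15 bases after. The element of Hspa5 begins 65 bases before the start site.

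With LLC, chaperone transcripts lay below control in most members, and the calls were downward with few exceptions. In neocortex 10 of 42 members fell and 0 rose (limma on log2(TPM + 1), two-sided, Benjamini-Hochberg adjusted p under 0.05 over all genes tested), where 2.95% of all 14485 genes fell and 5.59% rose. Cerebellum had 4 members that fell and 0 that rose, against 1.27% and 1.23% of 14624 genes. Hippocampus had 5 that fell and 2 that rose, against 1.03% and 2.58% of 14650 genes. In all, 12 members fell in at least 1 region, 2 rose in hippocampus, and 28 were called in no region. All LLC libraries lay below all controls for 13, 14 and 11 members in neocortex, cerebellum and hippocampus, against 6.18%, 10.3% and 4.81% of all genes, and above them for 1, 0 and 2, against 10.9%, 6.42% and 8.95%. Among all called genes the share that rose was 65.4% in neocortex, 49.2% in cerebellum and 71.5% in hippocampus as deposited, and 51.4%, 57.7% and 58.4% with median-ratio scaling. In these bulk samples fewer cells of a type and less RNA per cell cannot be told apart.

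By compartment the shift was smallest in the cytosol at the median and had the same sign in the organelles. The median log2 difference, LLC minus control, was -0.09, -0.12 and -0.06 for the cytosolic and nuclear members in neocortex, cerebellum and hippocampus. For mitochondrial members it was -0.17, -0.21 and -0.20, and for ER members -0.14, -0.16 and -0.10, while all genes tested had medians of 0.01, -0.04 and 0.01. The calls were spread differently: in neocortex 7 of 27 cytosolic, 2 of 4 mitochondrial and 1 of 11 ER members fell, in cerebellum 3, 1 and 0, and in hippocampus 4, 1 and 0. In all 3 regions at once, 29 of 42 members lay below 0, all 4 mitochondrial, 9 of 11 ER and 16 of 27 cytosolic ones, and 3 lay above 0, Hspa2, Hspb8 and Tcp1. With the libraries rescaled by median ratios, the median over members was -0.15, -0.12 and -0.09, against -0.13, -0.16 and -0.08 as deposited.

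The number of calls in a region rested on single libraries. Of 581 alternative values for called members 0 changed sign. These members were picked for a clear difference, so that outcome was nearly fixed beforehand. Leaving out LLC replicate 1, 2, 3 or 4 gave 0, 0, 2 and 21 called members in neocortex, 10, 0, 0 and 12 in cerebellum, and 0, 0, 1 and 16 in hippocampus. Leaving out control replicate 14, 15, 16 or 17 gave 4, 0, 0 and 1 in neocortex, 0 each time in cerebellum, and 0, 0, 0 and 1 in hippocampus. LLC replicate 4 was the LLC library closest to the control mean in 9 of the 10 falling members of neocortex, 4 of 4 in cerebellum and 4 of 5 in hippocampus. Among all falling genes it was closest in 80.6%, 44.6% and 57.0%. The same library has the lowest erythrocyte and the highest neutrophil sum of the LLC libraries, and the part of these in the result was not tested.

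**Figure D1:**
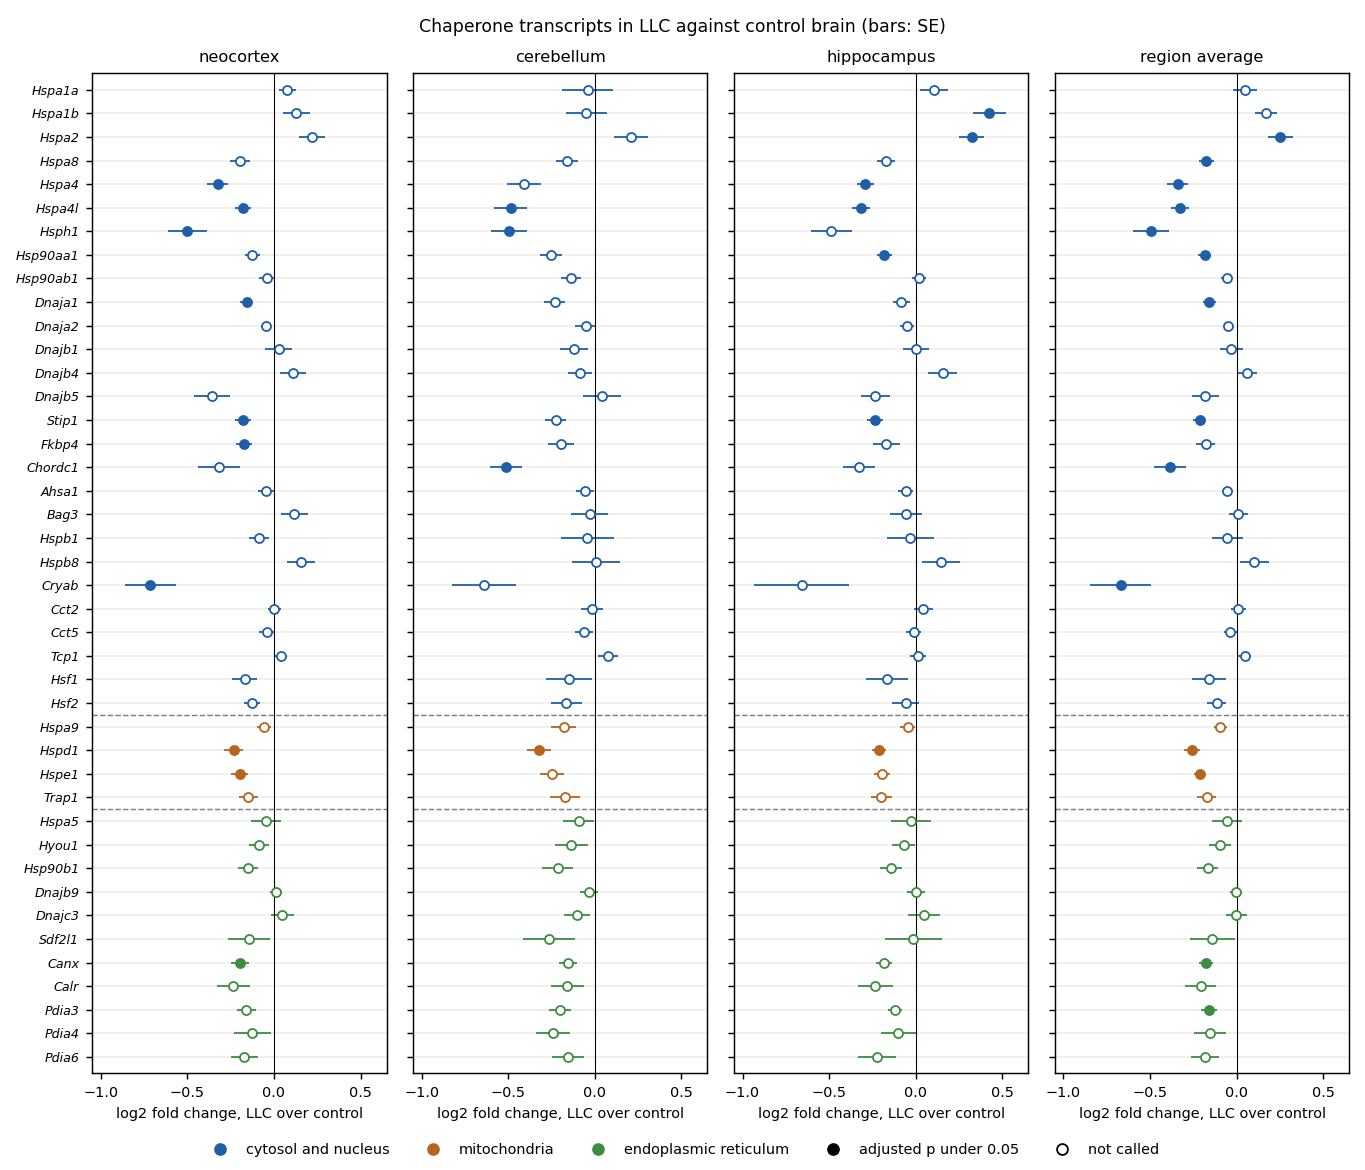
Log2 fold change of each of the 42 members, LLC over control, in the 3 regions and in the average over regions, with bars for the standard error, colour for the compartment and filled points for an adjusted p under 0.05. Filled points lie left of 0 except Hspa1b and Hspa2 in hippocampus and Hspa2 in the average.

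Among the HSP70 system the fall centred on the HSP110 family, the nucleotide exchange factors Hspa4, Hspa4l and Hsph1. Hspa4 read 121, 122, 116 and 143 TPM in LLC neocortex, against 153, 167, 154 and 154 TPM in control neocortex. Every LLC library lay below every control. The means were 125 ± 11.7 and 157 ± 6.77 TPM (SD, n = 4 each), a log2 fold change of -0.32 ± 0.06 (SE; limma adjusted p = 0.0183). In hippocampus Hspa4 fell by 0.29 on the log2 scale (SE 0.05, limma adjusted p = 0.0234), and in cerebellum the difference was -0.41 (SE 0.10, limma adjusted p = 0.0599) with no overlap of the groups.

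Hspa4l was called in all 3 regions. In hippocampus it read 37.7, 41.0, 42.7 and 40.8 TPM with LLC and 50.03, 53.6, 52.0 and 47.4 TPM in controls. The LLC libraries were close to each other, all below the lowest control, and the log2 fold change was -0.32 ± 0.05 (SE; limma adjusted p = 0.0231). In cerebellum the values were 57.5, 73.3, 77.3 and 78.3 TPM with LLC, lowest in the replicate 1 that stands apart, and 99.8, 104, 101.1 and 94.7 TPM in controls. That gave -0.48 ± 0.10 (SE; limma adjusted p = 0.0383), and in neocortex the change was -0.18 ± 0.04 (SE; limma adjusted p = 0.0408).

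Hsph1 had the largest change of the 3. It read 87.4, 84.7, 71.6 and 114 TPM in LLC neocortex, against 120.2, 132, 122 and 126 TPM in control neocortex. LLC replicate 4 lay nearest to the controls here and in both other regions. Its log2 fold change was -0.50 ± 0.11 in neocortex (SE; limma adjusted p = 0.0289) and -0.50 ± 0.10 in cerebellum (SE; limma adjusted p = 0.0447). In hippocampus it was -0.49 ± 0.12 (SE; limma adjusted p = 0.0533), short of a call with the groups apart.

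**Figure D2:**
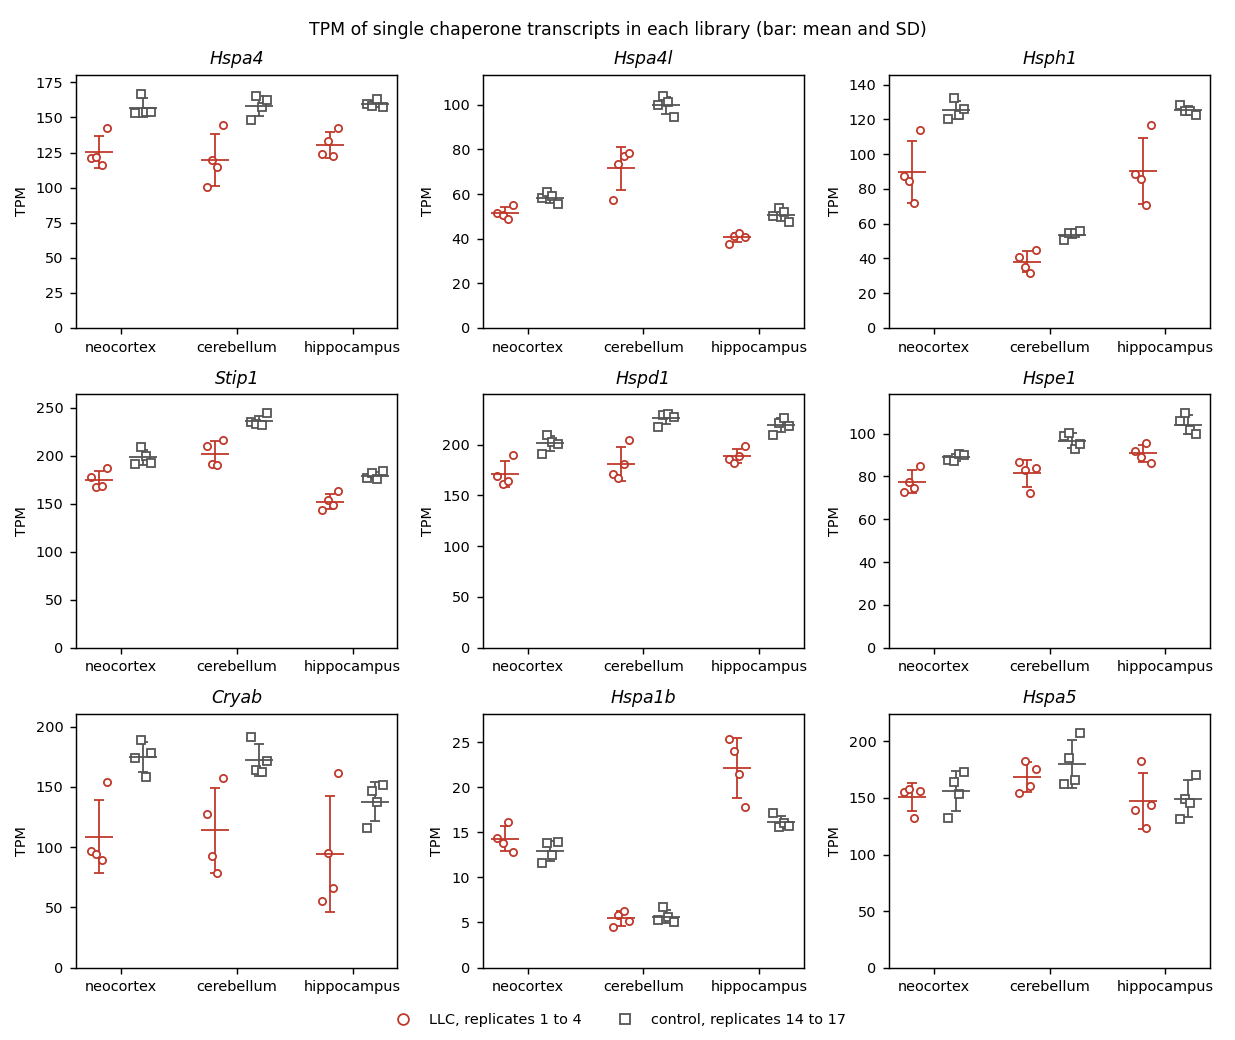
TPM of 9 members in each library, by region, with LLC as circles left of control as squares and bars for mean and SD (n = 4). Hspa4, Hspa4l, Hsph1, Stip1, Hspd1 and Hspe1 have all LLC points below all control points in each region, Hspa5 overlaps throughout, and Hspa1b lies apart upward in hippocampus.

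The HSP70 genes themselves differed among each other in direction. Hspa8 read 1242, 1116, 1175 and 1327 TPM in LLC neocortex and 1345, 1469, 1366 and 1379 TPM in control neocortex, with no overlap, a difference of -0.20 (SE 0.06, limma adjusted p = 0.0544). In hippocampus it read 1098 to 1277 TPM with LLC and 1280.0 to 1337 TPM in controls, again apart, with a difference of -0.17 (SE 0.05, limma adjusted p = 0.0887). It was called in no single region, and fell in the average over regions described further on. The inducible Hspa1a read 13.96, 13.5, 13.6 and 15.2 TPM in LLC neocortex, against 12.8, 13.4, 13.4 and 13.5 TPM in control neocortex, with no overlap by a narrow margin, and its log2 fold change was 0.08 ± 0.05 (SE; limma adjusted p = 0.326).

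Hspa1b, its near-identical neighbour on chromosome 17, rose in hippocampus. It read 25.3, 23.98, 21.5 and 17.8 TPM with LLC and 17.1, 15.6, 16.1 and 15.7 TPM in controls, a log2 fold change of 0.42 ± 0.10 (SE; limma adjusted p = 0.0452). The 4 LLC libraries lay above the controls, the lowest of them by less than 1 TPM. Reads can be split between the copies, so the sum is safer: 39.6, 40.7, 34.4 and 31.5 TPM with LLC against 30.1, 30.0, 28.6 and 29.0 TPM in control hippocampus, again apart. With median-ratio scaling the adjusted p of Hspa1b was 0.0591 in the same limma fit and the call was lost. Over 17 alternatives Hspa1b kept its call in 6. The regional falls were not firm either, kept in 7 to 13 of 17. In neocortex Hspa4l, Stip1, Fkbp4, Hspe1 and Canx were each at 7.

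Hspa2, an HSP70 form abundant in testis and present in brain, also rose in hippocampus. Its values were 77.5, 72.9, 68.0 and 62.5 TPM with LLC and 51.5, 53.9, 60.2 and 57.8 TPM in controls. All LLC libraries exceeded all controls, with a log2 fold change of 0.32 ± 0.07 (SE; limma adjusted p = 0.0427), which median-ratio scaling moved to an adjusted p of 0.0524. Hspa2 lay 0.22 and 0.21 above control on the log2 scale in neocortex and cerebellum, without a call.

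In hippocampus HSP90 differed between its cytosolic genes. Hsp90aa1, the more inducible form, read 836, 843, 888 and 892 TPM in LLC hippocampus, against 971, 998, 1008 and 945 TPM in control hippocampus. No LLC library reached the controls, and it fell by 0.18 on the log2 scale (SE 0.04, limma adjusted p = 0.0436). Its groups were also apart in neocortex and cerebellum, with log2 differences of -0.12 and -0.25 and no call. Hsp90ab1, the constitutive form, read 1583, 1537, 1638 and 1555 TPM in LLC hippocampus and 1573, 1581, 1547 and 1527 TPM in control hippocampus, which overlap. Its groups also overlapped in neocortex. In cerebellum they were apart, at 1046, 984, 1032 and 1132 TPM with LLC and 1135, 1166, 1152 and 1161 TPM in controls. Hsp90ab1 was called in no region.

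Several HSP90 co-chaperones fell. Stip1, which bridges HSP70 and HSP90, read 144, 153, 149 and 163 TPM in LLC hippocampus, against 176, 182, 176 and 184 TPM in control hippocampus. The groups did not overlap in any region, and the log2 fold change was -0.24 ± 0.04 in hippocampus (SE; limma adjusted p = 0.0280) and -0.18 ± 0.05 in neocortex (SE; limma adjusted p = 0.0414). Fkbp4, a prolyl isomerase of steroid receptor complexes, read 102, 93.3, 102 and 107 TPM in LLC neocortex and 111, 119.7, 111 and 115 TPM in control neocortex. These are narrow and separate ranges, with a change of -0.17 ± 0.05 (SE; limma adjusted p = 0.0458).

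Chordc1, an HSP90-binding protein whose promoter is printed above, was called in cerebellum. It read 51.0, 62.6, 55.0 and 67.8 TPM with LLC and 79.4, 91.7, 83.9 and 82.9 TPM in controls. The groups did not overlap, and the log2 fold change was -0.51 ± 0.09 (SE; limma adjusted p = 0.0299). In neocortex and hippocampus it lay 0.32 and 0.33 below control on the log2 scale with overlap and no call. Ahsa1, which stimulates the HSP90 ATPase, and Bag3, an HSP70 partner in selective autophagy, were not called, with differences between -0.06 and 0.12 over the 3 regions.

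Of the 5 cytosolic J proteins, which hand clients to HSP70, Dnaja1 fell in neocortex and the other 4 were called nowhere. Dnaja1 read 92.5, 90.6, 95.6 and 95.0 TPM in LLC neocortex, against 99.1, 105, 107 and 106 TPM in control neocortex. The shift was small and the ranges separate, with a log2 fold change of -0.16 ± 0.04 (SE; limma adjusted p = 0.0325). Dnajb5 read 44.0, 49.6, 49.0 and 45.3 TPM in LLC neocortex and 46.7, 63.7, 63.4 and 70.1 TPM in control neocortex, where control replicate 14 overlapped the LLC range. Its difference of -0.36 (SE 0.11) had a limma adjusted p of 0.0607.

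Cryab, a small heat shock protein that is abundant in oligodendrocytes and astrocytes, had the lowest fold change of the module in every region. It read 96.9, 94.5, 89.5 and 154 TPM in LLC neocortex, against 174, 189, 158 and 178 TPM in control neocortex. LLC replicate 4 stood well above the other LLC libraries and just under the lowest control. The log2 fold change was -0.71 ± 0.15 (SE; limma adjusted p = 0.0217), and -0.64 in cerebellum and -0.66 in hippocampus without a call. In hippocampus the values were 55.2, 95.0, 65.8 and 162 TPM with LLC and 116, 146, 138 and 152 TPM in controls, so that LLC replicate 4 exceeded every control.

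Markers of both glial types moved with Cryab in places. Of 6 astrocyte markers, none at 0 in any library, the water channel gene Aqp4 fell in neocortex (51.7 ± 15.04 TPM with LLC, 79.6 ± 5.15 TPM in controls, SD; limma adjusted p = 0.0344) and in cerebellum (155 ± 45.8 TPM with LLC, 278 ± 20.7 TPM in controls, SD; limma adjusted p = 0.0344), while Slc1a3 rose in neocortex and none was called in hippocampus. The astrocyte sum was 929 to 1283 TPM in LLC cerebellum and 1316 to 1396 TPM in control cerebellum, without overlap. It overlapped in neocortex (1200.4 to 1421 TPM with LLC, 1258 to 1369 TPM in controls) and in hippocampus (1161 to 1390.0 TPM with LLC, 1247 to 1419 TPM in controls). The sum over 8 oligodendrocyte markers, none at 0 in any library, was 2148 to 2351 TPM in LLC neocortex and 2463 to 2651 TPM in control neocortex, which do not overlap. In hippocampus the sum was 1432, 2297, 1990 and 3355 TPM in LLC replicates 1 to 4, ranked as Cryab was in these libraries, against 1819 to 2812 TPM in controls. In cerebellum it ranged from 2197 to 4521 TPM with LLC, against 2757 to 3430 TPM in controls. Cerebellar LLC replicate 1, with the highest of these sums, read 128 TPM for Cryab, and the lowest control 162 TPM. The part of this make-up in the Cryab result was not tested. The other small heat shock proteins, Hspb1 and Hspb8, lay between -0.09 and 0.15 on the log2 scale and were not called.

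The chaperonin subunits and the heat shock factors gave no call in any region. Cct2, Cct5 and Tcp1, subunits of the ring complex that folds actin and tubulin, ranged from -0.06 to 0.08 on the log2 scale. Hsf1, the main heat shock factor, lay 0.17, 0.15 and 0.16 below control in neocortex, cerebellum and hippocampus on that scale, and Hsf2 lay 0.13, 0.16 and 0.06 below.

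The mitochondrial set moved together in direction. Hspd1 and Hspe1 form the chaperonin of the matrix and share the promoter region shown above. Hspd1 read 186, 182, 188 and 198 TPM in LLC hippocampus, against 209.9, 221, 226 and 218 TPM in control hippocampus. The groups did not overlap, and it fell in all 3 regions, by 0.21 (SE 0.04) in hippocampus, 0.23 (SE 0.05) in neocortex and 0.32 (SE 0.07) in cerebellum on the log2 scale. The limma adjusted p-values were 0.0281, 0.0309 and 0.0462.

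Hspe1 read 72.6, 77.6, 74.8 and 85.0 TPM in LLC neocortex, against 87.6, 87.3, 90.5 and 90.2 TPM in control neocortex. It fell there by 0.20 on the log2 scale (SE 0.05, limma adjusted p = 0.0365). In hippocampus the difference was -0.20 (SE 0.05, limma adjusted p = 0.0502) and in cerebellum -0.25 (SE 0.07, limma adjusted p = 0.0768), each with the groups apart. Hspa9, the HSP70 of the matrix, read 197, 204, 233 and 236 TPM in LLC cerebellum and 245, 247, 250.1 and 241 TPM in control cerebellum. Those ranges did not overlap, yet the difference of -0.18 (SE 0.07) had a limma adjusted p of 0.155. In the other regions Hspa9 lay closer to control, with overlap and no call. It averaged 182.8 TPM with LLC and 190.1 TPM in controls in neocortex, and 184.1 and 190.2 TPM in hippocampus. Trap1, the mitochondrial HSP90, lay 0.15, 0.17 and 0.20 below control on the log2 scale in neocortex, cerebellum and hippocampus without a call.

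Averaged over its 4 members, the mitochondrial set lay below every control library in all LLC libraries of each region. The mean log2 difference from the control mean was -0.23 to -0.05 in LLC neocortex, -0.31 to -0.08 in LLC cerebellum and -0.18 to -0.14 in LLC hippocampus, whereas single controls ranged from -0.03 to 0.02. The cytosolic set did so only in cerebellum, where the lowest control was at -0.08 and the highest LLC library at -0.11. The ER set overlapped in each region, with LLC libraries from -0.27 to 0.05 and controls from -0.13 to 0.13.

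**Figure D3:**
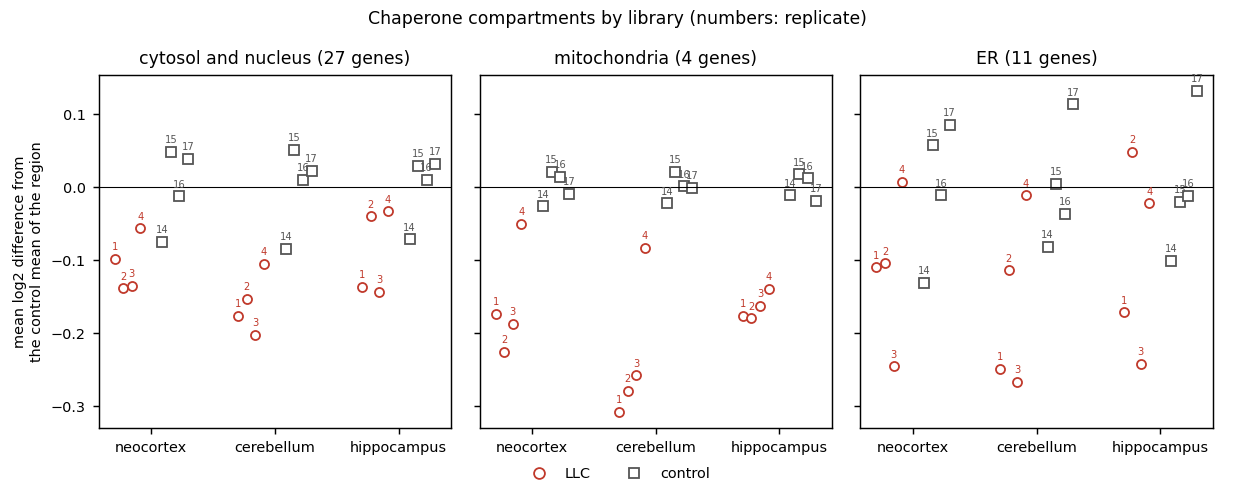
Mean log2 difference of each library from the control mean of its region, over the members of each compartment, with LLC as circles left of control as squares and the replicate number beside each point. The mitochondrial points of LLC lie under those of the controls in each region, and the ER points overlap.

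In the ER the single regional call was Canx, a lectin that holds glycoproteins while they fold. It read 191, 195, 183 and 217 TPM in LLC neocortex, against 225, 231, 214 and 229 TPM in control neocortex. LLC replicate 4 exceeded control replicate 16, and the log2 fold change was -0.20 ± 0.05 (SE; limma adjusted p = 0.0468). In cerebellum and hippocampus the groups were apart with differences of -0.16 and -0.18 and no call. Its soluble relative Calr lay 0.23, 0.16 and 0.23 below control on the log2 scale in neocortex, cerebellum and hippocampus, with overlap.

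Hspa5, the ER HSP70 and the usual readout of the unfolded protein response, did not pass the test. It read 155, 158, 132 and 156 TPM in LLC neocortex and 132, 164, 154 and 173 TPM in control neocortex. Its ranges overlapped there and in the other regions, and its log2 differences were -0.05 (SE 0.08), -0.09 (SE 0.09) and -0.03 (SE 0.11), with limma adjusted p of at least 0.546. The other genes that carry an ER stress element, Hsp90b1, Calr, Pdia6 and Dnajc3, gave no regional call either, Canx being the exception. Dnajb9, Dnajc3 and Sdf2l1, further targets of that response, lay between -0.27 and 0.05. The disulfide isomerases Pdia3, Pdia4 and Pdia6 lay between -0.24 and -0.10 in every region, without a call. Hyou1 was not called either, and its ranges overlapped in each region. It averaged 39.3 and 41.8 TPM in LLC and control neocortex, 35.7 and 39.3 TPM in cerebellum, and 41.1 and 43.1 TPM in hippocampus.

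Where each replicate number was averaged over its 3 regions, so that libraries that may share an animal count once, 13 members fell and 1 rose. That compares with 6.10% and 8.12% of 13633 genes, and the members' median was -0.15 against -0.01 for all genes. The smallest adjusted p was that of Hspe1, with 83.3 ± 1.70 TPM for LLC and 96.7 ± 2.04 TPM for control (SD, n = 4 each) and a log2 fold change of -0.21 ± 0.03 (SE; limma adjusted p = 0.00558). Hspa4l followed with 54.6 ± 3.94 TPM for LLC and 69.7 ± 2.90 TPM for control (limma adjusted p = 0.00677). The others were Stip1, Hspa4, Hspd1, Hsp90aa1, Hsph1, Canx, Chordc1, Dnaja1, Hspa8, Cryab and Pdia3, and the riser was Hspa2 at 0.25 ± 0.07 (SE; limma adjusted p = 0.0462). Hspa8 and Pdia3, a disulfide isomerase of glycoprotein folding, were called in this average and in no single region.

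The average called at least 5 members whichever replicate number was left out, together with its libraries in all 3 regions. Without LLC replicate 1, 2, 3 or 4 it called 10, 7, 8 and 21 members, and without control replicate 14, 15, 16 or 17 it called 10, 5, 5 and 7. Hspa4, Hspa4l, Hspd1, Hspe1 and Stip1 passed under each of the 16 alternatives run on the average. Those 5, with Hsph1 and Hsp90aa1, make up the 7 members whose LLC libraries lay below all controls in each of the 3 regions, an outcome of 0.836% of 13633 genes, and 0 members lay above in each, against 1.82%.

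No member passed the test of a difference in LLC effect between regions. For cerebellum minus neocortex 0 of 42 passed in limma with 2 at an unadjusted p under 0.05, where 0.646% of all genes passed. Hspa4l had the smaller p, with a difference of -0.31 (SE 0.10, limma adjusted p = 0.179), and Dnajb5 lay at 0.40 (SE 0.16, limma adjusted p = 0.285). For hippocampus minus cerebellum 0 passed with 4 at an unadjusted p under 0.05, against 0.0936% of genes, led by Hspa1b at 0.47 (SE 0.15, limma adjusted p = 0.203). Between hippocampus and neocortex 0 passed, 0 had an unadjusted p under 0.05, and 0 of all genes were called. With library weights the first 2 counts became 5 and 3.

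Other proteins of the same pathways, 108 genes in 7 lists, showed scattered calls. In neocortex Hspa12b, a distant HSP70 relative of endothelium, rose (8.61 ± 1.03 TPM with LLC, 5.76 ± 0.47 TPM in controls, limma adjusted p = 0.0124), and it rose in hippocampus as well (7.19 ± 0.85 TPM with LLC, 4.96 ± 0.53 TPM in controls, limma adjusted p = 0.0358). In neocortex it did so beside endothelial markers, of which 7 of 8 rose with sums of 196 to 288 TPM against 120.0 to 157 TPM. In hippocampus Pecam1, Cdh5, Flt1, Kdr, Cldn5 and Vwf of these markers rose, with sums of 157 to 192 TPM against 88.0 to 117 TPM. The list that holds Hspa12b has 19 tested HSP70 and J protein genes, and in neocortex 1 fell, St13, a factor that steadies HSP70. Of 12 HSP90 co-chaperones Ptges3 fell (139 ± 11.8 TPM with LLC, 161 ± 5.94 TPM in controls, limma adjusted p = 0.0471), and of 11 tested genes linked to the heat shock response Ier5 and Cacybp fell. Cacybp also fell in hippocampus, at 79.2 ± 3.76 TPM with LLC and 91.6 ± 1.87 TPM in controls (limma adjusted p = 0.0353).

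The mitochondrial and ER lists were mixed. Among 14 other mitochondrial proteostasis genes Dnajc15 fell and the protease subunit Spg7 rose in neocortex, and Timm44, which tethers HSP70 at the import channel, rose in hippocampus (60.1 ± 5.26 TPM with LLC, 49.9 ± 1.10 TPM in controls, limma adjusted p = 0.0450). Of 15 regulators of the unfolded protein response, Atf4 fell in neocortex (149 ± 23.7 TPM with LLC, 200.03 ± 11.4 TPM in controls, limma adjusted p = 0.0253) while the sensor Ern1 and the phosphatase subunit Ppp1r15a rose. Mbtps1, a Golgi protease that activates Atf6, rose in hippocampus, and of 22 other ER genes Pdia5 rose in cerebellum. The medians of the 7 lists lay between -0.11 and 0.02 over the 3 regions, with none called among the 11 chaperonin and prefoldin genes in any region. In cerebellum Pdia5 was the single call over the 7 lists. The average over regions called more of these genes. It had Cct4 down among the chaperonin genes (-0.12, limma adjusted p = 0.0494), Sugt1 and Ptges3 down among the HSP90 co-chaperones, St13 and Dnajb14 down and Hspa12b up among HSP70 and J protein genes, and Hspa13 down and P4hb up in the ER list. Cacybp, Dnajc15 and Atf4 were also down in it, and Spg7, Timm44 and Mbtps1 up.

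Without LLC, many members differed in level between regions, as most genes did, and scaling decided part of that. As deposited, the share of members called, up and down together, was below that of all genes in each comparison. Between control cerebellum and control neocortex 21 members were higher and 11 lower in cerebellum (limma; 61.0% and 24.4% of 14729 genes), but with median-ratio scaling 8 were higher and 25 lower, since that scaling moves the median of all genes from 0.31 to 0.01 on the log2 scale. For hippocampus against cerebellum the split was 13 higher and 20 lower (26.6% and 55.3% of 14814 genes), and 22 and 9 with median-ratio scaling. For hippocampus against neocortex it was 13 higher and 9 lower (40.5% and 21.3% of 14561 genes), and 7 and 15 with that scaling. The same call under the deposited, median-ratio and quantile values was had by 18, 22 and 16 members in these comparisons.

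Among the members with the same call under these scalings, cerebellum was low in Hsph1, Hspa1b and Hspa2 and high in Bag3, Hspa4l and Fkbp4. Hsph1 averaged 53.7 ± 2.21 TPM in control cerebellum, 125 ± 2.31 TPM in the hippocampus of controls and 125 ± 5.37 TPM in their neocortex (mean ± SD of 4 libraries), so that hippocampus and neocortex did not differ beyond their spread. Its log2 fold change, cerebellum over neocortex, was -1.21 ± 0.04 (SE; limma adjusted p = 2.95e-10). Hspa1b averaged 5.66 ± 0.71, 16.1 ± 0.70 and 13.0 ± 1.10 TPM in the same order, and Hspa2 20.8 ± 2.37, 55.9 ± 3.88 and 40.5 ± 3.25 TPM. The other way, Bag3 averaged 24.8 ± 2.83, 7.56 ± 0.58 and 8.12 ± 0.54 TPM, and Hspa4l 99.9 ± 3.799, 50.7 ± 2.68 and 58.4 ± 2.25 TPM. Fkbp4, Hsf1, Dnajc3 and Trap1 were likewise higher in cerebellum than in neocortex under each scaling.

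**Figure D4:**
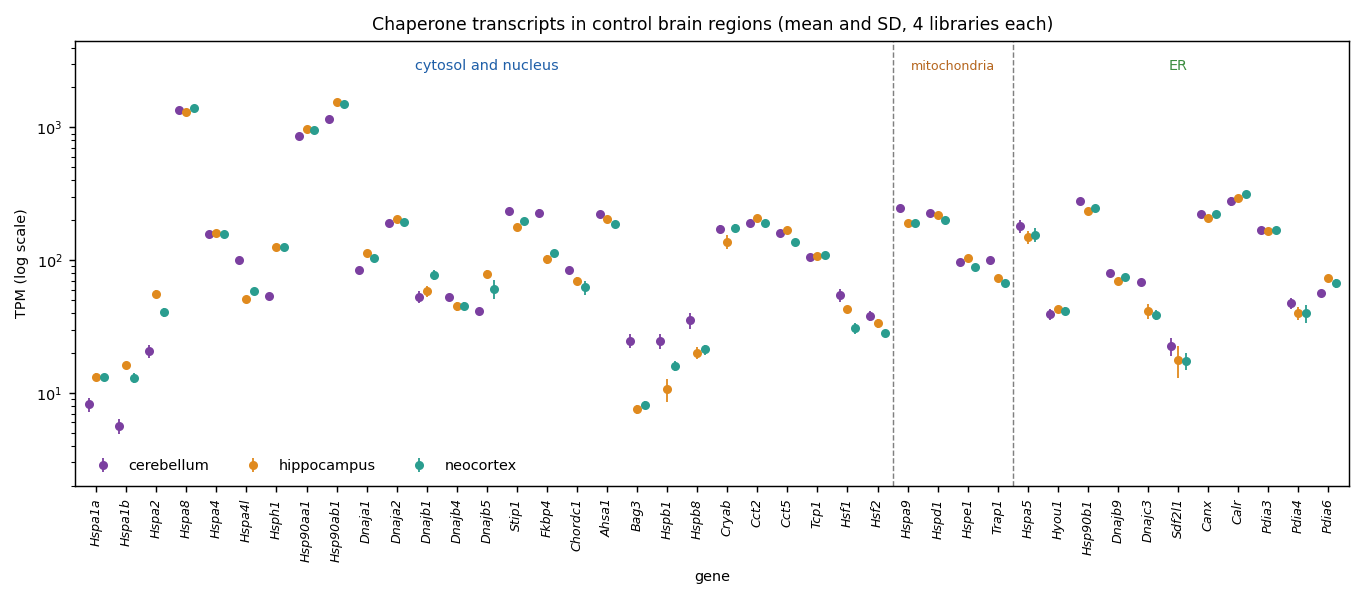
Mean TPM with SD of each member in control cerebellum, hippocampus and neocortex (n = 4 each) on a log scale, grouped by compartment. Hspa8, Hsp90aa1 and Hsp90ab1 are the highest, and Hsph1, Hspa1b and Hspa2 are lowest in cerebellum, where Bag3 and Hspa4l are highest.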

How the data were processed

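The authors deposited 1 table of TPM (transcript abundance per length, scaled to a fixed total) for 24 libraries. The submitters' processing notes name mm10 as the build. Which aligner and counter were used is not given in the sources used here. Since read depth cannot be had from these values, no counting interval is printed. Per the labels' protocols, RNA was extracted with Trizol and sequenced from stranded mRNA libraries.

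Genes with a mean of at least 1 TPM in a comparison were tested on log2(TPM + 1), which understates changes of low genes, with limma 3.58.1 (trend, R 4.3.3), two-sided, and Benjamini-Hochberg adjustment at 0.05 over all genes tested. Regions were tested with 4 LLC and 4 control libraries, the average over regions with 4 and 4 means, and regional differences in a fit of all 24. Scripts were tested on simulated data. Python 3.11.15 with pandas 2.3.3 and matplotlib 3.10.9 handled promoters and plots.

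All 42 members are accounted for. Values per library are given for members called in a region (up to 12 by p), in the region of smallest adjusted p, and for Hspa1a, Hspa1b, Hspa8, Hspa9 and Hspa5. Of other lists, called genes are named, up to 4 per list and region. Members and lists were chosen with earlier results of these data known, and some list symbols are older names. Alternatives were another pseudocount, other filters, 2 other scalings, a robust fit, library weights, 1 fit of all libraries, a replicate block, and each replicate number left out. The replicate block was the description number, which joins LLC and control libraries, or the title number for comparisons between regions. Calls for single oligodendrocyte markers are not reported here.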

Additional observations from a re-analysis of the deposited data

Results flagged for a closer look

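Of 252 combinations of member and group, 11 held a library far from the other 3, its gap to the nearest exceeding Dixon's 95% critical share of the group's range, where chance gives about 5%. In LLC neocortex, Cryab was highest in replicate 4 at 153.878 TPM, Dnajb4 lowest in replicate 4 at 42.0192 TPM and Hspa5 lowest in replicate 3 at 132.304 TPM. In LLC hippocampus, Dnajb4 was again lowest in replicate 4, at 42.2781 TPM, and Dnajb9 highest in replicate 3 at 74.767 TPM. In LLC cerebellum, Ahsa1 was lowest in replicate 3 at 204.171 TPM.

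In control neocortex, Hspa1a and Sdf2l1 were lowest in replicate 14, at 12.7886 and 13.6043 TPM, and Hspa4 and Tcp1 highest in replicate 15, at 167.021 and 113.378 TPM. In control cerebellum, Pdia6 was highest in replicate 17 at 61.5682 TPM. Control hippocampus had 0.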

How the results depend on the processing

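With 4 libraries a group, counts of called members moved with the processing. Of 581 alternative values for called members, 356 stayed on their side of the threshold, 225 lost the call and 0 changed sign. The members were picked for a clear difference, so the lack of sign changes says little about how stable directions are. The 10 calls of neocortex became 2 with no filter, 22 with library weights and 3 with the replicate block. The 4 of cerebellum became 0 with no filter, 7 with quantile scaling, 21 with library weights and 15 in 1 fit of all libraries. The 7 of hippocampus became 4 with no filter, 13 with library weights and 2 with the replicate block. The differences between regions, with 0 calls, had 5 for cerebellum minus neocortex and 3 for hippocampus minus cerebellum with library weights. The cause was not tested. Leaving out 1 library gave 0 to 21 calls in neocortex, 0 to 12 in cerebellum and 0 to 16 in hippocampus. Leaving out 1 replicate number, with its libraries in all regions, gave 5 to 21 in the average. The main fits did not take the description numbers to pair samples, and only the replicate block used them so. Deviations of LLC and control libraries with the same description number correlated above 0.1 in 5 of 12 pairs (-0.30 to 0.49). With the same title number in different regions it was 18 of 24 pairs (-0.12 to 0.67), not every pair, and whether these libraries share an animal is not stated in the labels. Read depth is unknown, which limits what can be said of low genes.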
